A study of Mus musculus with 4 samples.

Results

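A set of 10 genes in a pair of chromosome neighbourhoods was followed across the 4 arrays of a study of insulin in mouse osteoblasts. Osteoblasts are the cells that build bone. Most of the 10 genes were bright on the control array, though Cpm was dim on every array. The chromosome 10 neighbourhood comprises Cpm, Mdm2, Slc35e3, Nup107 and Rap1b, and the chromosome 6 neighbourhood comprises Ndufa9, Rad51ap1, D6Wsu163e, Tigar and Ccnd2. They are 10 of 18193 genes that the platform annotation named alone on at least 1 probe set, a group of short probes read together as 1 value. The members were taken by symbol, with every probe set annotated to a single member, which gave 26 probe sets, 10 for chromosome 10 and 16 for chromosome 6. The choice rested on these arrays: the neighbourhoods were picked because genes in them were brighter at 0 h than under insulin. Differences between the 0 h array and the insulin arrays are therefore a description and carry no test, and they support nothing beyond themselves.

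Per the labels the cells were grown to confluence, deprived of serum, and either taken as the control at 0 h or given 10 nM insulin for 6, 12 or 24 h. The growth protocol describes cells without the IGF-1 receptor, whereas the genotype entry reads IGF-1 null, and this genotype is given for the control and the insulin groups alike. Which gene was deleted is not settled by these labels, and the arrays gave Igf1 an intensity of 1641 on the control array and of 5532, 5983 and 6024 on the insulin arrays in order of time. Igf1r intensities were 388 at 0 h and 259, 265 and 319 under insulin, and whether the probes lie in the deleted stretch is not known here. Each group holds 1 array, so no difference between groups has a replicate check and none carries a p-value or an error. No untreated culture at a later time was analysed here, so insulin, time and the difference between cultures cannot be told apart.

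Mdm2 encodes the ubiquitin ligase that marks p53 for destruction, and p53 in turn drives Mdm2 transcription. MDM2 is amplified in human sarcomas, osteosarcoma among them, and an amplified segment carries its neighbouring genes along. On chromosome 6, Ccnd2 encodes cyclin D2, which activates the kinases CDK4 and CDK6 at the start of the cell cycle, and Tigar encodes a fructose bisphosphatase known in human cells as a p53 target. Ndufa9 is a subunit of mitochondrial complex I, and Rad51ap1 takes part in the repair of DNA breaks. The comparison asks whether neighbours on the chromosome were shifted together, as they would be in a gained segment. Arrays of RNA do not count DNA copies.

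The promoters of the genes with the largest differences are shown because a pair of them face each other. RefSeq promoter windows on GRCm38.p6 run from 250 bases before to 50 bases after the gene start, and 9 of the 10 members had one. Rad51ap1 on the minus strand (chr6:126939538-126939837) and D6Wsu163e on the plus strand (chr6:126939716-126940015) are transcribed away from each other. Their starts lie 379 bases apart and their windows share 122 bases. The windows of Mdm2 (chr10:117710709-117711008, minus strand) and Slc35e3 (chr10:117746309-117746608, minus strand) lie apart, with starts separated by 35600 bases. In the sequences below, each written 5′ to 3′ on the strand of its gene, capitals mark matches on either strand to short promoter motifs. The TATA box was searched for with the letters TATAAA, and the GC box, which is bound by Sp1, with the letters GGGCGG. The box bound by the factor NF-Y was searched for with its own 5 letters, CCAAT. The E2F-like motif, seen in promoters of cell cycle genes, was searched for as TTGGCGC. The ETS-like motif, known from promoters of genes in general use, was searched for as CCGGAAG.
Rad51ap1: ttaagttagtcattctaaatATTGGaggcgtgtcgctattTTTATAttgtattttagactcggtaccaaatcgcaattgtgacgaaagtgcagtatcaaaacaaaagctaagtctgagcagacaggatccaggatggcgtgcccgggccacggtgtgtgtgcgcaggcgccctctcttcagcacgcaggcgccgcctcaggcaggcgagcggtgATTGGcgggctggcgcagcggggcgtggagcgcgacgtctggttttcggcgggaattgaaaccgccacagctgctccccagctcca
D6Wsu163e: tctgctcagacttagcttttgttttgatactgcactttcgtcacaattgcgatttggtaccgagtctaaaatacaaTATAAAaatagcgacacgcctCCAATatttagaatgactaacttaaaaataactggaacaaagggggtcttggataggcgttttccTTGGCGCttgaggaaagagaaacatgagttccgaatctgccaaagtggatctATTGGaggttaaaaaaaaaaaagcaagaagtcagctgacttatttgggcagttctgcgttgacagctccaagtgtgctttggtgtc
Mdm2: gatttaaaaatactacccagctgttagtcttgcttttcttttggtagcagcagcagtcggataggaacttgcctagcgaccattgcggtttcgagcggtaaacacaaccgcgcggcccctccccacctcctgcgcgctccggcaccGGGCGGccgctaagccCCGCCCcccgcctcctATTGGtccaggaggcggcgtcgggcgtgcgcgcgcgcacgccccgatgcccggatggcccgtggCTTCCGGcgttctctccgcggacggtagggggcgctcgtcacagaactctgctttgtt
Slc35e3: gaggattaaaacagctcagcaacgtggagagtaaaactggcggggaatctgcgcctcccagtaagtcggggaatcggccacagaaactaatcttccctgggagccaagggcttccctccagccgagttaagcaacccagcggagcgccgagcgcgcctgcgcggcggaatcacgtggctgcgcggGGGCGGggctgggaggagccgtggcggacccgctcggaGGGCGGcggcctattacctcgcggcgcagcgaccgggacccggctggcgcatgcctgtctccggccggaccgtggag

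The Rad51ap1 and D6Wsu163e windows share 1 TATA box match, seen on opposite strands, and 1 NF-Y box match, while each has a second NF-Y box match of its own. The D6Wsu163e window also holds 1 E2F-like match. The Mdm2 window holds 2 GC boxes, 1 NF-Y box and 1 ETS-like motif, and the Slc35e3 window holds 2 GC boxes alone. Over the 9 member windows, 2 held the TATA box, 4 the NF-Y box, 6 the GC box, 2 the E2F-like and 2 the ETS-like motif. Of all 32851 windows, 13.6% held the TATA box, 37.4% the NF-Y box, 35.7% the GC box, 2.45% the E2F-like and 8.86% the ETS-like motif. In the Tigar window a NF-Y box match overlaps an E2F-like match. The G and C content was 56.0% for Rad51ap1, 40.3% for D6Wsu163e, 64.7% for Mdm2 and 68.0% for Slc35e3, beside a median of 52.7% over all windows. A match describes these letters only and is not a measured binding site.

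The values are intensities on a linear scale, and differences are log2 insulin minus log2 0 h. For each gene the probe set with the highest geometric mean over the arrays was used, and the gene was kept where that mean reached 66.2, the median over all probe sets that are not controls. That brightness filter kept 11661 of 18193 genes and 9 of the 10 members, leaving out Cpm. It kept 23 of the 26 member probe sets. On these terms 7 of the 9 members were at least 2-fold lower than at 0 h on all 3 insulin arrays, beside 3.8% of all genes that passed the filter, from which nothing is read because the members were chosen on this contrast. At 4-fold the count was 6 of 9, namely Mdm2, Slc35e3, Ndufa9, Rad51ap1, D6Wsu163e and Tigar, beside 0.609% of all genes. The 2-fold count was 3 of 4 for chromosome 10 and 4 of 5 for chromosome 6. Nup107 lay just inside the 2-fold threshold, at 2.01-fold on the 6 h array. Ccnd2 lay outside it by its brightest probe set, at 1.62-fold to 1.73-fold, though 3 of its 7 probe sets passed.

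On chromosome 10, the probe set that represents Mdm2 read 13646 at 0 h and 1895, 1823 and 1865 at 6, 12 and 24 h. The 0 h array stood alone, and the insulin arrays lay close together. Insulin arrays were lower by 7.20-fold, 7.48-fold and 7.32-fold, a mean difference of -2.87. The second Mdm2 probe set read 15702 at 0 h and 1377, 1057 and 1027.5 under insulin, with a mean difference of -3.78. Its 3 insulin values were less alike than those of the first, with a highest over lowest ratio of 1.34 against 1.04. The third, below the filter, read 163.4 at 0 h and 31.1, 27.1 and 25.2 under insulin, so every Mdm2 probe set was brightest at 0 h.

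Slc35e3, a gene of the nucleotide sugar transporter family, showed the largest difference of the chromosome 10 members. It read 9761 at 0 h and 538, 615 and 613 at 6, 12 and 24 h, which was 18.2-fold, 15.9-fold and 15.9-fold lower. Again the 0 h array alone was high. Nup107, a scaffold protein of the nuclear pore, read 1151 at 0 h and 571, 516 and 506 under insulin. The direction was that of its neighbours but the size was smaller, at 2.01-fold, 2.23-fold and 2.27-fold lower. Its single probe set carries the suffix _s_at, which the maker gives to probes that can match more than 1 transcript.

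Of the outer members of the chromosome 10 group, one was too dim to measure and one was not shifted by 2-fold. Cpm, which encodes the membrane enzyme carboxypeptidase M, read 39.4 at 0 h and 28.3, 29.4 and 27.8 under insulin on one probe set and 18.2, 17.3, 16.8 and 20.3 in the same order on the other. Both lay below the filter on all 4 arrays, so that no shift of this gene could be measured. Rap1b, a small GTPase of cell adhesion signalling, was well above the filter and read 5699 at 0 h and 5624, 5040 and 5270 under insulin. This was a mean difference of -0.10. Its second probe set read 2887 at 0 h and 2323, 1864 and 1806 under insulin, a mean difference of -0.54, and the third read 680 at 0 h and 699, 665 and 737 under insulin, where the 0 h value lay within the range of the others. The median difference over the 4 chromosome 10 members above the filter was -2.0, beside 0.12 for all 564 such genes of chromosome 10 and 0.01 for all genes.

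**Figure D1:**
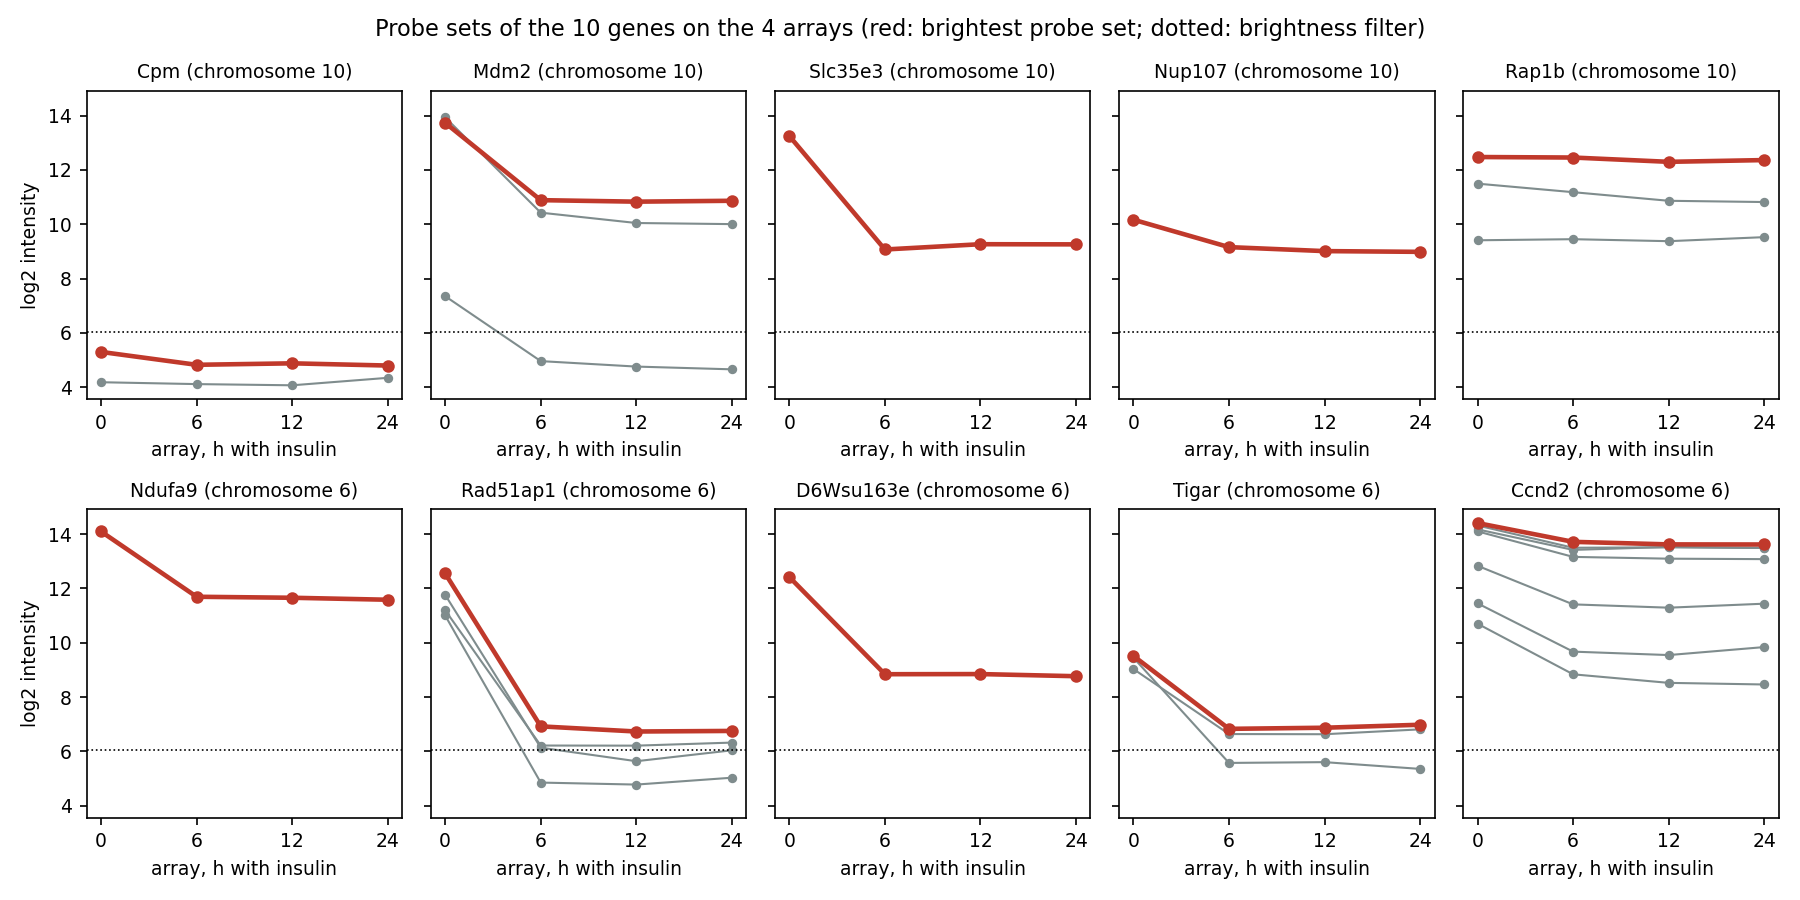
Intensity of every member probe set on the 4 arrays, on a log2 axis with the arrays evenly spaced; thick lines are the probe set that represents the gene, thin lines the other probe sets, and the dotted line is the brightness filter at 66.2. Rad51ap1 fell from 6017 at 0 h to 106 to 121 under insulin, while Rap1b stayed between 5040 and 5699.

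On chromosome 6, Ndufa9 had a single probe set, which read 17547 at 0 h and 3313, 3229 and 3071 at 6, 12 and 24 h. The insulin arrays were 5.30-fold, 5.43-fold and 5.71-fold lower and close to one another. Rad51ap1 showed the largest drop of all 11661 genes above the filter, with a mean difference of -5.75. Its representative probe set read 6017 at 0 h and 121, 106 and 108 under insulin. The other 3 Rad51ap1 probe sets read 2055, 2354 and 3479 at 0 h, and none of them exceeded 80.1 on an insulin array. Some of those insulin values lay under the filter, where background can hold up the signal, and its part in these folds was not tested.

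D6Wsu163e, the gene that faces Rad51ap1, read 5490 at 0 h and 459, 460 and 436 at 6, 12 and 24 h. The insulin arrays were nearly equal and 12.0-fold, 11.9-fold and 12.6-fold lower. The divergent pair thus moved in one direction by unequal amounts, with mean folds of 53.9 for Rad51ap1 and 12.2 for D6Wsu163e. Tigar read 732 at 0 h and 114, 117 and 126 under insulin, a mean difference of -2.62. Its other probe sets went the same way, by 5.06-fold and by 15.4-fold on average. The latter read 700 at 0 h and 47.7, 48.6 and 40.9 under insulin.

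Ccnd2 was lower under insulin by less, and its 7 probe sets differed in size. The representative one read 21756 at 0 h and 13462, 12614 and 12580 at 6, 12 and 24 h, a mean difference of -0.76 or 1.69-fold. All 7 were brightest at 0 h. The 4 probe sets over 10000 at 0 h were 1.62-fold to 1.99-fold lower on average, and the other 3 were 2.74-fold to 4.27-fold lower. As an example of the latter, one probe set read 1666 at 0 h and 458, 368 and 353 under insulin. The highest value of any probe set on the 0 h array was 31291.8, so the brighter Ccnd2 probe sets lay near the top of the scale, and the part of that brightness in their smaller difference was not tested. The median difference over the 5 chromosome 6 members was -2.62, beside -0.07 for all 590 genes of chromosome 6 above the filter.

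Counting probe sets in place of genes, 17 of the 26 were at least 2-fold lower on all 3 insulin arrays, beside 3.1% of all 34945 probe sets with 1 symbol, from which again nothing is read. By their brightest probe sets the genes inside a neighbourhood differed in the size of the shift. Mean folds ran from 2.17 for Nup107 to 16.6 for Slc35e3 among the 3 chromosome 10 genes past the threshold, a ratio of 7.66. They ran from 5.48 for Ndufa9 to 53.9 for Rad51ap1 among the 4 chromosome 6 genes, a ratio of 9.85. Probe sets of 1 gene differed too, from 5.90 to 13.7 for Mdm2, from 5.06 to 15.4 for Tigar, from 30.9 to 69.5 for Rad51ap1 and from 1.62 to 4.27 for Ccnd2. How much of the difference between genes lies in the probes was not tested.

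The insulin arrays can be compared with one another without the 0 h array on which the choice rested. By its brightest probe set no member was 1.5-fold apart between any pair of insulin arrays, 0 of 9, beside 2.38% of all genes above the filter. None was 1.2-fold apart either, beside 20.1% of all genes. Among all 26 member probe sets the ratio of the highest to the lowest insulin array ran from 1.02 for a Ccnd2 probe set to 1.41 for a Rad51ap1 probe set, with a median of 1.12. No member probe set reached 1.5-fold, beside 2.35% of all probe sets with 1 symbol. At least 1.2-fold was reached by 7 of the 26, near the 27.3% of all such probe sets. The 3 insulin differences of a member share the same 0 h array and are not 3 separate observations of it.

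In RefSeq gene order the chromosome 10 members stand in an unbroken row of protein-coding genes, Cpm, Mdm2, Slc35e3, Nup107 and Rap1b. With the brightest probe set of each gene, the inner 3 were at least 2-fold lower on average. The next gene beyond Cpm is Cpsf6, a pre-mRNA cleavage factor, which read 992 at 0 h and 680, 761 and 711 at 6, 12 and 24 h, a mean difference of -0.47. All 6 Cpsf6 probe sets were brightest at 0 h, and one below the filter read 82.8 at 0 h and 22.5, 13.6 and 21.7 under insulin. Averaged over its 6 probe sets Cpsf6 had a difference of -1.02, so that where the row of lower genes ended on this side depended on how probe sets were combined. Beyond Rap1b the nearest gene above the filter was Dyrk2, a protein kinase, with 519 at 0 h and 774, 829 and 889 under insulin, which is higher under insulin. Over the 10 genes above the filter on each side, the median difference was 0.34.

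Among these 20 flanking genes 1 was at least 2-fold lower on average, 4933412E12Rik, with 366 at 0 h and 162.5, 163.5 and 178 under insulin. The 6 that were at least 2-fold higher were Lgr5, Lyz1, Lyz2, Irak3, Msrb3 and Wif1. Of all genes above the filter, 4.8% were at least 2-fold lower and 19.5% at least 1.5-fold higher on average. The threshold of the latter share is looser than that of the count, so it is too large to set beside the 6 genes. At 2-fold, among the 11623 genes above the filter with a chromosome, 943 higher genes stood without a higher neighbour. The other higher genes formed 118 rows of 2 adjacent genes, 24 of 3, 7 of 4 and 1 of 7. Lyz2, a lysozyme of macrophages, read 248 at 0 h and 3565, 4354 and 4914 under insulin, and its near-identical copy Lyz1 may share signal with it. Wif1, a secreted Wnt inhibitor made by osteoblasts, read 9.47 at 0 h and 85.4, 191 and 232 under insulin. The flanking genes of chromosome 10 went both ways, and nothing is read from their counts.

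**Figure D2:**
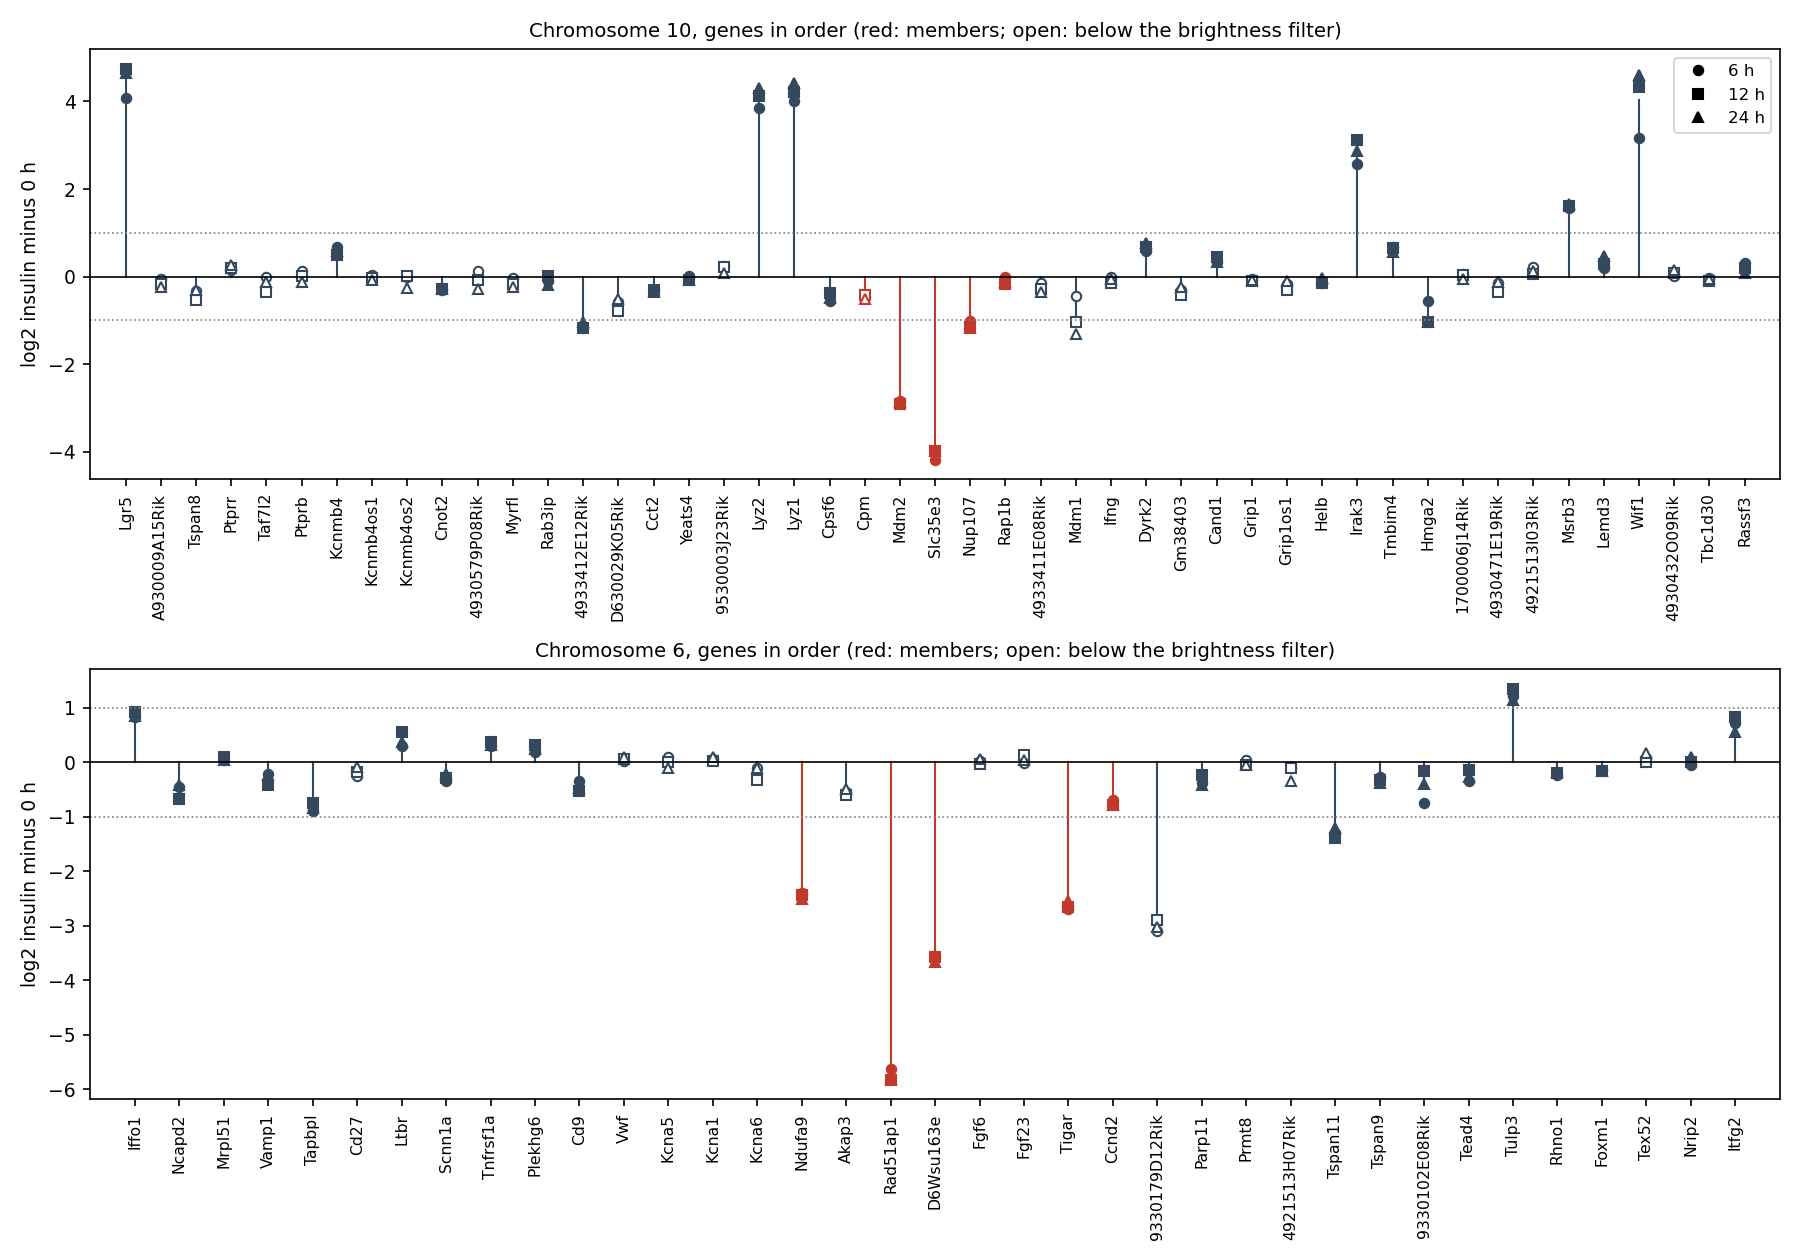
Difference, log2 insulin minus 0 h, of each gene in RefSeq order around the chromosome 10 members (top) and the chromosome 6 members (bottom). Circles are the 6 h array, squares 12 h and triangles 24 h, and the stem ends at their mean. Members are red and other genes dark, and open symbols mark genes below the filter. Mdm2, Slc35e3 and Nup107 lie under -1 in a row, and so do Ndufa9, Rad51ap1, D6Wsu163e and Tigar once the genes below the filter are passed over.

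On chromosome 6 the members stand in the order Ndufa9, Rad51ap1, D6Wsu163e, Tigar and Ccnd2, but other genes lie between them. Akap3, an anchoring protein of sperm, lies between Ndufa9 and Rad51ap1. One Akap3 probe set read 40.5 at 0 h and 27.9, 26.6 and 28.9 under insulin. The other, shown after its values were seen, read 77.9 at 0 h and 17.9, 17.8 and 18.7 under insulin. Both were highest at 0 h, and both lay below the filter by their mean. Dyrk4 was not measured here.

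The growth factor genes Fgf6 and Fgf23 lie between D6Wsu163e and Tigar. Fgf6 read 18.3 at 0 h and 18.7, 17.9 and 19.0 under insulin, and Fgf23 read 22.3 at 0 h and 22.1, 24.4 and 23.0. Neither was raised at 0 h, and both were far below the filter on all 4 arrays. Of the non-member genes between Ndufa9 and Ccnd2 with a probe set, 3 in all, none passed the filter.

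On the side of Ndufa9 the nearest gene above the filter was not shifted by 2-fold. This gene, Cd9, a membrane protein of the tetraspanin family, read 3147 at 0 h and 2483, 2181 and 2278 under insulin, a mean difference of -0.45. On the side of Ccnd2 the adjoining 9330179D12Rik, below the filter by its mean and named after its values were seen, read 149 at 0 h and 17.3, 19.9 and 18.2 under insulin. It was above the filter on the 0 h array alone. Parp11, a mono-ADP-ribosyltransferase and the nearest gene above the filter on that side, read 433 at 0 h and 334, 369 and 322 under insulin, a mean difference of -0.34.

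The median difference over the 20 flanking genes of chromosome 6 was -0.22. One of them, Tspan11, another tetraspanin, was at least 2-fold lower, with 401 at 0 h and 164, 153 and 174 under insulin. One, Tulp3, a gene of cilium trafficking, was higher, with 591 at 0 h and 1373, 1501 and 1297 under insulin. Nothing is read from these counts, beside the 4.8% of all genes above the filter that were at least 2-fold lower.

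A run was counted as adjacent genes above the filter that all had a mean difference of at least 2-fold in one direction. Over the 11623 genes with a chromosome, 4.8% of genes were lower by this rule, in 414 runs of 1 gene, 56 of 2 genes, 10 of 3 genes and 1 of 4 genes. The run of 4 was Ndufa9, Rad51ap1, D6Wsu163e and Tigar, with a median difference of -3.11. Mdm2, Slc35e3 and Nup107 formed 1 of the 10 runs of 3, with a median of -2.87. The 9 lower runs of 3 without a member had medians from -1.94, for Taf15, Ccl5 and Ccl9 on chromosome 11, to -1.06. With 4-fold in place of 2-fold the chromosome 6 run kept its 4 genes and no other lower run reached 3. These lengths describe the choice, since the neighbourhoods were noticed for their shift.

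Runs of adjacent genes were not limited to the members' neighbourhoods. Runs higher under insulin by at least 2-fold numbered 943 of 1 gene, 118 of 2 genes, 24 of 3 genes and 7 of 4 genes. There was also 1 of 7 genes, from Ddc to Cnrip1 on chromosome 11. At 1.5-fold the chromosome 6 run took in Ccnd2 and held 5 genes, and 9 lower runs of the genome, this one included, had 5 genes or more. The longest of them held 10 genes. Among 11561 overlapping windows of 4 adjacent genes, those from Ndufa9 to Tigar and from Rad51ap1 to Ccnd2 shared the lowest median, -3.11. The window of Cpsf6, Mdm2, Slc35e3 and Nup107 came in place 4, at -2.0, level with that from Mdm2 to Rap1b. These places again describe the choice.

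**Figure D3:**
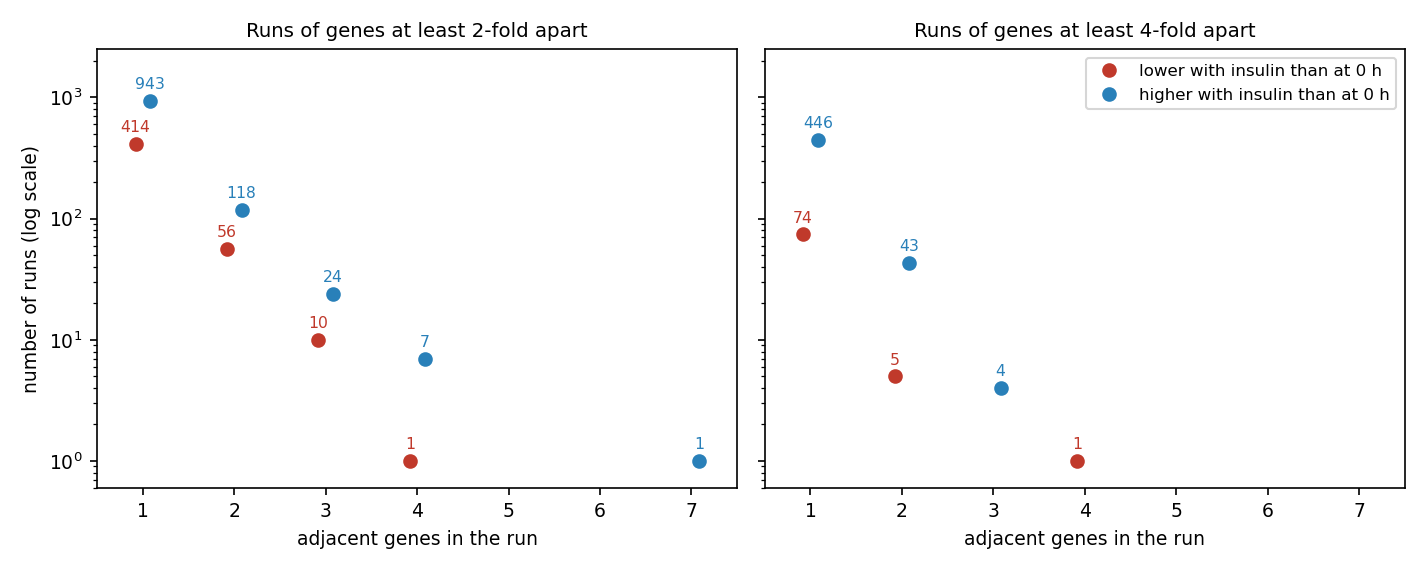
Number of runs of adjacent genes above the filter, by run length, with a mean difference of at least 2-fold lower or higher under insulin; the count axis is logarithmic. The members give the only lower run of 4 genes and 1 of the 10 lower runs of 3 genes.

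The genes most like a member across the 4 arrays were found by the Euclidean distance between log2 values centred on their own mean, over 11661 genes. For Mdm2 these were Gbp6, Taf15 and Enpp3, at distances of 0.10, 0.13 and 0.18. Gbp6 read 1349 at 0 h and 190.5, 195 and 183 under insulin. For Ndufa9 they were Gem, Oas2 and Mndal, at distances of 0.03, 0.10 and 0.15. Gem read 360.2 at 0 h and 69.5, 66.4 and 64.5 under insulin. None of these 6 genes lies in either neighbourhood, and the likeness rests on 4 arrays.

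Other genes of the members' pathways were set beside them from 6 lists without the members, counting a mean difference of at least 1.5-fold. Of all genes above the filter 12.9% were lower and 19.5% higher by that rule. Of 25 p53 target genes above the filter, 14 were higher under insulin and 3 lower, with a median of 0.71, while Mdm2 and Tigar were lower. Cdkn1a, the p53-induced inhibitor of cell cycle kinases, read 4525 at 0 h and 11289.5, 11486 and 10460 under insulin. Perp, a p53 target of cell junctions, read 14.7 at 0 h and 943, 1161 and 1006 under insulin, and Pmaip1, a p53-induced killer protein, read 12.6 at 0 h and 961, 892 and 1001. Aen, a p53-induced nuclease, was 2.30-fold higher. Mdm2 and Tigar lay on the other side of the 0 h level from most of the listed p53 targets. Their neighbourhoods were picked for genes brighter at 0 h, which fixed that side in advance. Nothing is read from it, here or for the other lists.

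Of 31 complex I genes beside Ndufa9, 1 was lower and 0 were higher, with a median of -0.03. The one was Ndufa6, with 3198 at 0 h and 1807, 1918 and 1898 under insulin, 1.71-fold lower. The mean fold of Ndufa9 was 5.48, outside the range of this list, which describes the choice. Of 13 nuclear pore scaffold genes beside Nup107, 5 were lower and 0 higher, with a median of -0.44. Nup155 was 2.19-fold, Nup43 2.07-fold, Seh1l 1.63-fold and Nup37 1.58-fold lower, and the 2.17-fold of Nup107 lay within the range of its partners.

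Of 9 homologous recombination genes above the filter, 5 were lower and 0 higher, with a median of -0.60. Brca2, a tumour suppressor of DNA break repair, read 223 at 0 h and 113, 103 and 117 under insulin and was the lowest of them at 2.01-fold. Rad54l, Brca1 and Usp1 were 1.84-fold, 1.78-fold and 1.60-fold lower. Rad51ap1, at 53.9-fold, was outside the range of this list, which again describes the choice.

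Beside Ccnd2 stood 17 genes for D and E cyclins, their kinases and inhibitors, with Rb1, Rbl1, Rbl2 and E2f1. Of these 6 were lower and 5 higher, with a median of -0.20. The other D cyclins went the opposite way to Ccnd2. Ccnd1 read 1463 at 0 h and 4112, 4075 and 4227 under insulin, and Ccnd3 read 1023 at 0 h and 2283, 2309 and 1978. Of the inhibitors, Cdkn1b was 2.99-fold lower, and Cdkn1c read 32.1 at 0 h, under the filter, and 830, 849 and 952 under insulin. Beside Rap1b stood 15 genes, for regulators and effectors of Rap1 and for the related GTPases Rap1a, Rap2a, Rap2b and Rap2c. Of these 2 were lower and 3 higher, with a median of 0.12. Rapgef1, an activator of Rap1, was 2.07-fold higher, and Sipa1l2, of a family of Rap inactivators, was 1.85-fold lower.

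**Figure D4:**
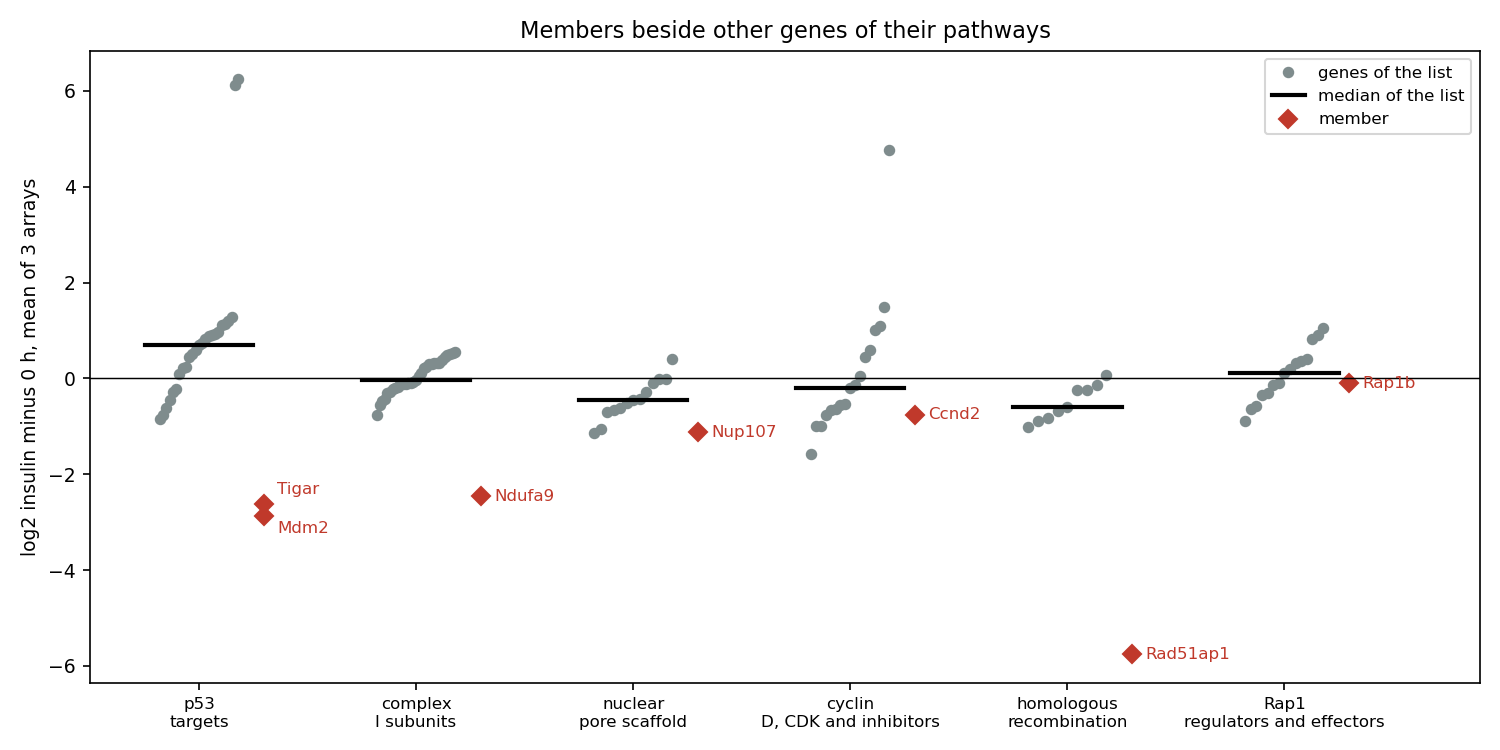
Mean difference, log2 insulin minus 0 h, of the genes above the filter in 6 pathway lists (grey), their median (bar) and the members (red). Mdm2 and Tigar lie under all p53 targets shown, Ndufa9 under all complex I genes and Rad51ap1 under all homologous recombination genes, while Nup107, Ccnd2 and Rap1b lie within the range of their lists. The neighbourhoods were picked for genes brighter at 0 h, so the place of the members is a description.

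The 0 h array differed from the insulin arrays in many other genes. Array medians were nearly equal, from 64.97 to 65.75. Xist, which coats the silenced X chromosome, read 109 at 0 h and 1278 to 1636 under insulin, and the Y-linked Eif2s3y read 12.2 at 0 h and 295 to 326. Of 10 osteoblast markers 7 had a probe set with 1 symbol and all 7 passed the filter. Their summed intensity was 35150 at 0 h and 55583 to 67306 under insulin, most of it from Col1a1 and Col1a2. Ibsp read 202 at 0 h and 8849 to 13147 under insulin. Sp7, Alpl and Pth1r were below the filter on the 0 h array, at 60.8, 61.5 and 36.9, while Col1a1 read 13802 there. The summed macrophage markers, 7 of 8 of them above the filter, read 1000 at 0 h and 5561 to 7873 under insulin. Lyz2 alone gave 248 and 3565 to 4914 of these sums. Cd14 went the other way, with 370 at 0 h and 153 to 162 under insulin. The chondrocyte markers summed to 875 and 4454 to 6998, of which Col2a1 gave 239 and 3151 to 5209. The muscle markers summed to 400 and 1858 to 2022, of which Acta1 alone gave 130.2 and 1626 to 1802, while Myod1, Myog and Ckm lay below the filter by their mean. The adipocyte markers summed to 10237 and 3904 to 8041, of which Lpl gave 9525 and 1492 to 3035, whereas Adipoq read 23.4 at 0 h and 511 to 1141 under insulin. Endothelial markers summed to 211 and 214 to 241, and 4 of 5 were below the filter. In bulk RNA fewer cells of a type and less RNA per cell cannot be told apart. The part of these differences in the members' values was not tested.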

How the data were processed

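RNA from 4 osteoblast cultures, 1 array each, was measured on Affymetrix 3′ arrays. The deposited intensity values are linear and come from RMA per the submitters' processing notes. RMA corrects background, normalizes arrays and summarises probes; which program, version and build were used is not given in the sources. RMA can compress differences of dim probe sets. The arrays hold 45101 probe sets, 64 of them controls, and the platform annotation named 1 symbol for 34945, several for 932 and none here for 9160. Log2 was taken, and the 0 h array was subtracted from each insulin array (Python 3.11.15, pandas 2.3.3, numpy 2.4.6). Every gene had its brightest probe set, with a filter at 66.2. RefSeq GRCm38.p6 gave gene order, and 38 genes above the filter had no place in it. Counting steps were tested on simulated data.

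The members, lists and tests were chosen with earlier results of these data known. Genes were named by a rule: all members; genes between and next to them; flanking genes at least 2-fold apart; the 3 most alike; up to 4 genes a list, largest first, that were 1.5-fold apart or more; and genes of the longest runs. Scaling, filter, probe set choice, fold threshold, flank width and reference array were varied, and each insulin array alone was set against 0 h as an alternative chosen after seeing the data. With 1 array per group the number of arrays limits the precision.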

Additional observations from a re-analysis of the deposited data

How the results depend on the processing

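Of 98 alternative values for the counts, medians, runs and flanks, 74 stayed near the reported value, 17 moved and 7 changed sign. The members' count of 7 became 5 without suffixed probe sets, 6 after loess scaling or at 4-fold, and 8 with all probe sets averaged or at 1.5-fold. With no filter the chromosome 10 median was -1.12, because Cpm entered, its flanks turned to -0.10, and the Ndufa9 run was 1, because Akap3 entered. Without suffixed probe sets the Mdm2 run was 0, because its brighter probe sets left. Averaging all probe sets gave a chromosome 6 median of -2.97 and chromosome 10 flanks of 0.20, and lengthened the Mdm2 run to 4, with Cpsf6, and the Ndufa9 run to 5, with Ccnd2. A mean in place of the median gave -3.04 for chromosome 6, 1.04 for the chromosome 10 flanks and -0.0754 for those of chromosome 6. The chromosome 6 flanks were -0.15 after loess, -0.31 with 5 and -0.14 with 20 genes a side and -0.17 at 12 h alone; those of chromosome 10 were 0.26 with a filter at 100 and 0.50 with 5 genes a side. With the 6, 12 or 24 h array as the reference, which puts the 0 h array among the others, the count was 0 each time, the chromosome 10 medians were 0.58, 0.71 and 0.71 and those of chromosome 6 were 0.96, 0.90 and 0.90. These changes of sign and counts of 0 follow from the new place of the 0 h array and say nothing of the processing. The other change of sign was that of the unfiltered chromosome 10 flanks. The cause was not tested where none is given. Some Rad51ap1 and Tigar probe sets lay under the filter on insulin arrays, and the part of dim signal in their folds was not tested. No paired analysis was possible because each group has 1 array and the groups share a single replicate number.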
